A study of Rattus norvegicus with 6 samples.

Results

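The genes described here are 38 cell cycle and proliferation genes of rat liver, grouped by role into 4 of G1 and the entry into S phase, 11 of DNA replication and 23 of mitosis. They were found as array probes other than controls whose RefSeq accession belongs to a member gene, with Cdk1 also written Cdc2. Of the 38, 33 had a matched probe (69 probes), and 30 had at least 1 probe well above background on 3 or more of the 6 arrays and were tested, of 11434 genes tested in all. The 30 were 10 replication, 16 mitosis and 4 G1 genes. Mcm5, Bub1b, Melk, Mki67 and Top2a had no matched probe and were not analysed here, and Aurkb, Pbk and Cenpf had probes that did not pass the filter on dim signal.

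Total liver RNA of 6 male Sprague-Dawley (Crl:CD(SD)) rats was hybridised to 1-colour Agilent arrays, 1 array for each animal. Corn oil, the vehicle, was given to 3 animals, and 3 received phenolphthalein, a pH indicator once sold as a laxative, at 1000 mg/kg/day. Rats of both groups were 5 weeks old when bought and ate the same basal diet, and no label names a genetic change. The labels disagree on how long treatment lasted, 28 days in the design text and 9 weeks in the treatment protocol, so the age at sampling is not settled. The animals' number limits the precision, and from 62.1% to 65.1% of the 61657 probes of an array were well above background. The corn oil group shared slide 1 and scan 1 and the phenolphthalein group slide 2 and scan 2, so treatment, slide and scan cannot be told apart here. The liver label was checked against albumin, Alb, whose log2 signal was 9.54 to 9.63 on all 6 arrays, in units relative to the array's 75th percentile. All levels below are on this log2 scale, and a difference is phenolphthalein minus corn oil.

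A cell that leaves rest makes D and E cyclins, which release E2F transcription factors from the retinoblastoma protein, and E2F then turns on the enzymes of DNA replication. Cyclin B with Cdk1 starts mitosis, and the anaphase-promoting ubiquitin ligase ends it. Adult hepatocytes rarely divide, and in a young adult liver the dividing cells include hepatocytes and cells of the sinusoids. In RNA of whole liver, fewer cells of a type and less RNA per cell cannot be told apart.

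Replication and mitosis members differed in some short motifs near their starts, which the rule for members did not use. The motifs searched, on both strands, were 4 forms of the E2F site (TTTGGCGC, TTTGCCGC, TTTCGCGC or TTTCCCGC), the cell cycle homology region, called CHR, with the letters TTTGAA, the box read as CCAAT, and the TATA box, read as TATAAA, over 250 bases before and 50 after the start that the RefSeq promoter table of build GRCr8 uses. That table had an entry for 28 of the 38 members, 9 replication, 18 mitosis and 1 G1 gene. E2F letters were found in 6 of 9 replication and 1 of 18 mitosis members, against 2.14% of all 33469 promoters of that length. CHR letters were found in 1 of 9 replication and 12 of 18 mitosis members, against 18.3% of all promoters. The CCAAT box was in 6 of 9 and 14 of 18, against 37.5%, and the TATA box in 0 of 9 and 1 of 18, against 14.2%. Among these members 2 matches overlapped a match of another motif, and 3 pairs of E2F matches overlapped each other. The table's start lay at the gene's outer boundary for 12 of the 28 members, over 1000 bases inside it for Aurka, Birc5 and Kif11, and up to 254 bases inside it for the rest. Without those 3 genes, CHR letters were in 11 of 15 mitosis members. A match is a run of letters and was not tested as a binding site.

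The stretches below are shown because they set the replication kind, E2F letters without CHR letters, beside the mitosis kind. They end at the gene's outer boundary. CHR was searched as TTTGAA only, and other spellings of it were not looked for. Capitals mark matches to E2F, CHR or CCAAT on either strand. Mcm6 and Mcm7 are helicase subunits, and Cdk1 is the mitotic kinase and the 1 mitosis member with both E2F and CHR letters. Cdc20 has CHR and CCAAT letters, and Ccnb1 has CCAAT without the letters TTTGAA. They lie on GRCr8 at chr13:42404353-42404602 (Mcm6, minus strand), chr12:22163321-22163428 (Mcm7, minus), chr20:19265043-19265251 (Cdk1, plus), chr5:137255800-137256049 (Cdc20, minus) and chr2:33655226-33655475 (Ccnb1, minus). The printed Mcm7 and Cdk1 stretches stop 142 and 41 bases before the table's start, where the gene boundary lies. They thus leave out matches that the search above covered. For Mcm7 these were E2F letters at -52 and CCAAT boxes at -140, -94 and -45 from the table's start. For Cdk1 CHR letters at -16 were left out.
Mcm6: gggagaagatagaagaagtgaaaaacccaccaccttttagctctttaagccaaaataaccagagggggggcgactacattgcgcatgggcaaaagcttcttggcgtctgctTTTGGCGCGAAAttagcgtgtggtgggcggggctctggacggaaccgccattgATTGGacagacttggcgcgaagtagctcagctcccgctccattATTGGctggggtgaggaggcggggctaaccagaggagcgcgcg
Mcm7: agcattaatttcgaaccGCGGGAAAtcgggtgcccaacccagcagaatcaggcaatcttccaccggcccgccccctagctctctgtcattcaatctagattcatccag
Cdk1: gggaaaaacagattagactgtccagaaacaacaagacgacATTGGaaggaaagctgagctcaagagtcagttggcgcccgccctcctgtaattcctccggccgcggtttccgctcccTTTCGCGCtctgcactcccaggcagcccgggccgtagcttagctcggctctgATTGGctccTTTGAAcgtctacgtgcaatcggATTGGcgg
Cdc20: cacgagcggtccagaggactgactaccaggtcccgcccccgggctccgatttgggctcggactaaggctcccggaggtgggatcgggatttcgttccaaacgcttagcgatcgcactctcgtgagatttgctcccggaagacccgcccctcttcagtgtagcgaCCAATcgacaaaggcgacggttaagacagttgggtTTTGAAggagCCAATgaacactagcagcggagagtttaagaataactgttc
Ccnb1: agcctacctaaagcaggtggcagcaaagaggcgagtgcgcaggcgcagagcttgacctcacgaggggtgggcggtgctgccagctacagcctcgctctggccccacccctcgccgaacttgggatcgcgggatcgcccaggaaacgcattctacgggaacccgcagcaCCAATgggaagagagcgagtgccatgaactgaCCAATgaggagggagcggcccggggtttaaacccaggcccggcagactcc

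The comparison asked whether phenolphthalein treatment went with other levels of cell cycle transcripts than the vehicle. No member passed in limma after Benjamini-Hochberg adjustment over 11434 genes, where 7 genes (0.0612% of those tested) passed at an adjusted p under 0.05. The smallest limma adjusted p of a member was 0.204, for Mcm7. At an unadjusted limma p under 0.05 there were 4 members, Mcm7 and Kif11 with a higher mean and Nusap1 and Aurka with a lower mean. That is 2 of 30 in each direction, against 7.16% of all genes higher and 8.11% lower. The groups did not overlap for Mcm7 and Kif11, which lay higher with phenolphthalein on all 3 arrays, and for Aurka, which lay lower. Among all genes 12.2% did not overlap with phenolphthalein higher and 11.0% with it lower, so these shares of the members lie near or below the background. The 95% interval of the difference lay within a 2-fold change either way for 29 of 30 members. It did not for Ccne1, with an interval from -0.87 to 1.22 log2 units.

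**Figure D1:**
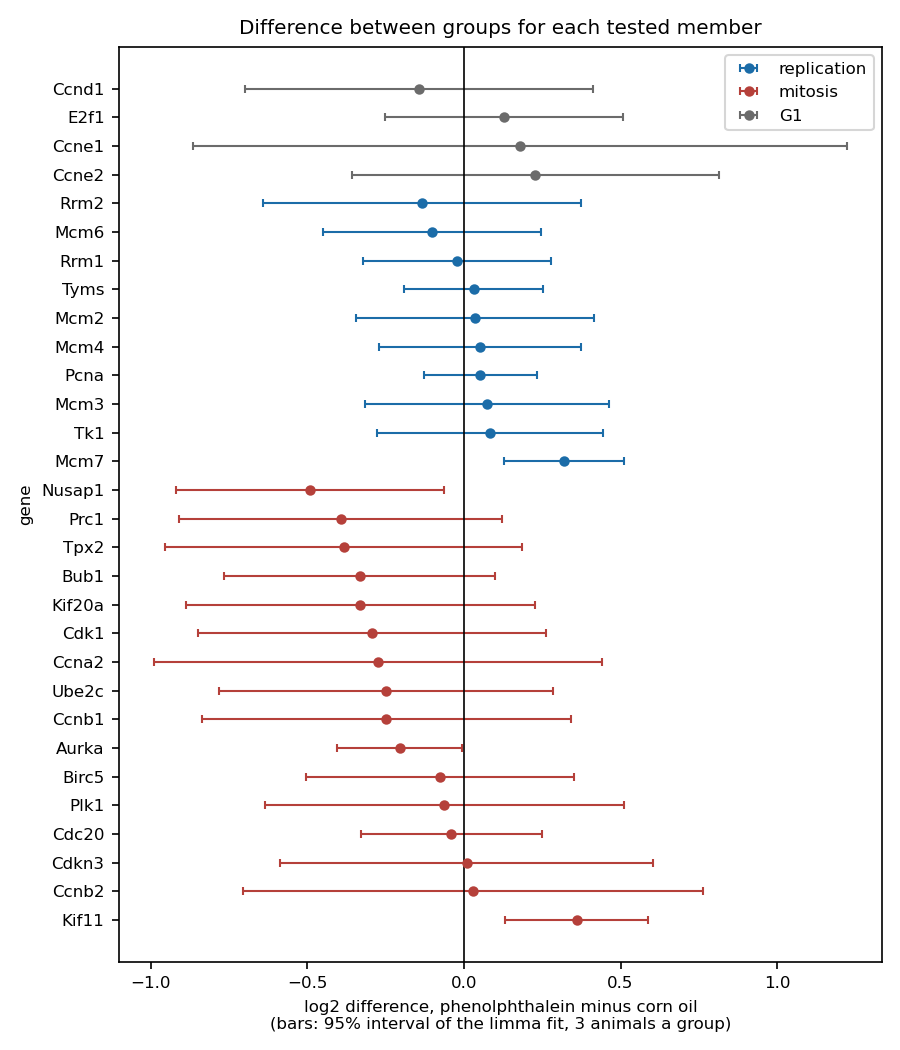
Difference between groups for the 30 tested members, as log2 signal with phenolphthalein minus corn oil on the x axis, 1 gene a row, coloured by role. Points are limma estimates and bars are 95% intervals (3 animals a group). Intervals of 4 genes leave out 0 (Mcm7, Kif11, Nusap1 and Aurka), and none of the 4 passed after adjustment over all genes.

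Among the genes of G1, Ccnd1, cyclin D1, the cyclin that growth signals induce, had levels of 3.24, 3.55 and 2.67 in corn oil replicates 1 to 3 and, in the order of replicate number, 3.13, 3.01 and 2.89 with phenolphthalein. The phenolphthalein arrays lay inside the corn oil range, and the difference was -0.14 ± 0.23 (SE). Its other probes had differences of 0.16 and -0.08. E2f1, the activator of S phase genes, had a difference of 0.13 ± 0.15 (SE), and its 3 other probes ran from -0.21 to 0.06. The E cyclins, partners of Cdk2 at the start of S phase, were dim. Ccne2 read -5.45, -4.98 and -4.53 with corn oil and -4.85, -4.85 and -4.58 with phenolphthalein, a difference of 0.23 ± 0.24 (SE). Ccne1 read -2.68, -2.62 and -2.01 with corn oil and -2.77, -2.67 and -1.32 with phenolphthalein. Its difference of 0.18 ± 0.43 (SE) was -0.29 without phenolphthalein replicate 3, the highest array. None of the 4 had an unadjusted limma p under 0.05.

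The replication members differed little between the groups. Their median difference was 0.04, beside 0.01 for all genes tested, and 7 of 10 had a higher and 3 a lower mean. Mcm7, a subunit of the MCM2-7 helicase that unwinds DNA at the fork, had the lowest limma p. It read 1.79, 1.81 and 1.85 with corn oil and 2.03, 2.20 and 2.17 with phenolphthalein. All 3 phenolphthalein arrays lay above all 3 corn oil arrays, and the difference was 0.32 ± 0.08 (SE; limma adjusted p = 0.204). The second Mcm7 probe had no such separation. It read -1.34, -1.25 and -1.30 with corn oil and -1.38, -1.27 and -1.29 with phenolphthalein, a difference of -0.01 ± 0.08 (SE). The mean of both probes gave 0.15.

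The other helicase subunits had differences from -0.10 to 0.07. By their brightest probes, Mcm2, Mcm3, Mcm4 and Mcm6 shared phenolphthalein replicate 1 as the lowest of the 6 arrays. The other Mcm2 probes were lowest on corn oil replicate 3, at -3.26 and -3.99. A second Mcm4 probe was lowest on corn oil replicate 2, at -4.69. Other Mcm3 probes were lowest on phenolphthalein replicate 1, at -3.35 and -3.50, except the dimmest, lowest on corn oil replicate 3 at -5.87. Mcm3 read -0.58, -0.82 and -0.77 with corn oil and -0.96, -0.57 and -0.41 with phenolphthalein, and phenolphthalein replicate 3 was its highest array. Mcm4 read -0.24, -0.40 and -0.38 with corn oil and -0.50, -0.32 and -0.05 with phenolphthalein, with the same arrays lowest and highest. Mcm6 read -3.51, -3.50 and -3.47 with corn oil and -3.88, -3.54 and -3.36 with phenolphthalein. Its corn oil arrays had an SD of 0.02 and its phenolphthalein arrays one of 0.27, and its difference was -0.10 ± 0.14 (SE). Mcm2 read -1.42, -1.54 and -1.53 with corn oil and -1.80, -1.29 and -1.29 with phenolphthalein, a difference of 0.04 ± 0.16 (SE). The groups overlapped for each of these 4 subunits.

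Pcna, the sliding clamp that holds DNA polymerase on its template, varied little between animals. It read 1.35, 1.37 and 1.24 with corn oil and 1.36, 1.41 and 1.34 with phenolphthalein, a difference of 0.05 ± 0.07 (SE) with a 95% interval from -0.13 to 0.23. Its second probe had a difference of -0.14 ± 0.09 (SE). Of the enzymes that supply nucleotides, Tyms, thymidylate synthase, had a difference of 0.03 ± 0.09 (SE), and Tk1, thymidine kinase, one of 0.08 ± 0.15. Rrm1, the large subunit of ribonucleotide reductase, had a difference of -0.02 ± 0.12 (SE). Rrm2, its small subunit, which is made in S phase, read -0.43, -0.12 and 0.30 with corn oil and -0.09, -0.10 and -0.45 with phenolphthalein. Corn oil replicate 3 stood highest and phenolphthalein replicate 3 lowest, and the difference was -0.13 ± 0.21 (SE). Other Rrm2 probes past the filter had differences of 0.07 and -0.33, and neither was lowest on phenolphthalein replicate 3. Probes of 1 gene disagreed in the sign of the difference for 5 of the 8 replication genes with more than 1 probe past the filter.

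**Figure D2:**
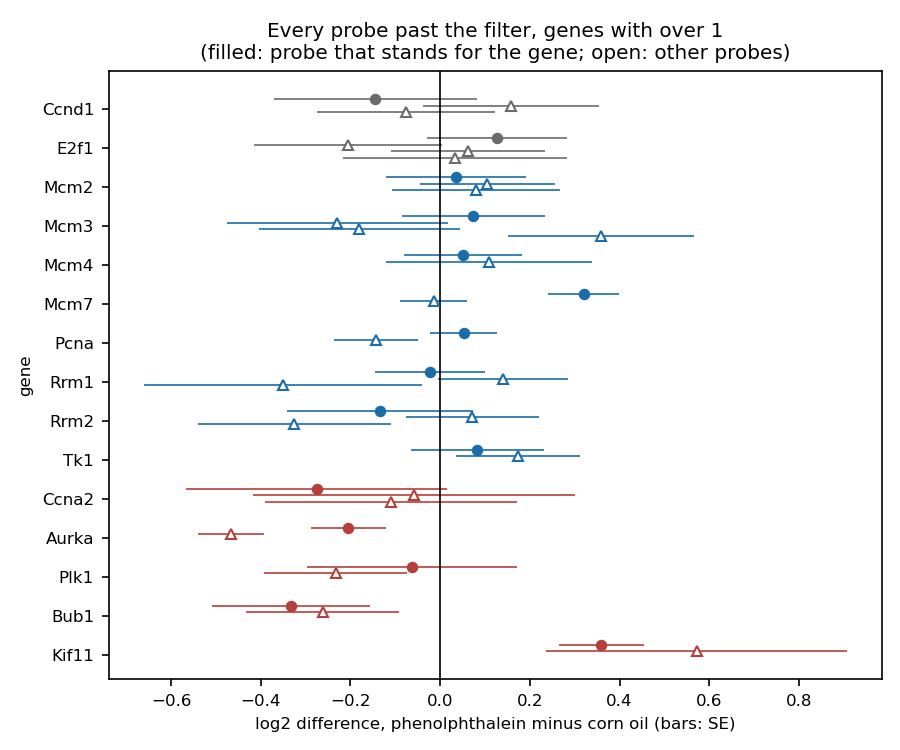
Differences of every probe past the filter for the 15 tested members with more than 1 such probe, as log2 signal with phenolphthalein minus corn oil on the x axis. Filled circles are the brightest probe, which stands for the gene, open triangles are its other probes, and bars are SE (3 animals a group). The signs were alike over the probes of each of 5 mitosis genes (red), of which Kif11 had a second probe that passed the filter mainly through the phenolphthalein arrays, while for 5 of 8 replication genes (blue) and 2 of 2 G1 genes (grey) they were not.

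Most mitosis members had a lower mean with phenolphthalein. The median difference of the 16 was -0.25, beside 0.01 for all genes tested. Their median SD between animals was 0.35 with corn oil, larger than that difference in size, and 0.20 with phenolphthalein, smaller than it. The mean was lower for 13 and higher for 3, or lower for 10 with each array scaled to its median. Among all genes tested 48.2% had a lower mean. Counted by probe, 18 of 22 mitosis probes past the filter were lower. No mitosis member passed after adjustment, and 14 of the 16 had groups that overlapped.

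Cdk1, the kinase that drives entry into mitosis, read -0.74, -0.17 and -0.04 with corn oil and -0.31, -0.68 and -0.83 with phenolphthalein. Corn oil replicate 1 lay among the phenolphthalein arrays, and the difference was -0.29 ± 0.23 (SE; limma adjusted p = 0.569). Ccnb1, cyclin B1, its partner, read -3.20, -2.79 and -2.42 with corn oil and -2.78, -3.02 and -3.36 with phenolphthalein, a difference of -0.25 ± 0.24 (SE). Ccnb2, cyclin B2, read -3.81, -3.18 and -2.61 with corn oil and -3.03, -3.18 and -3.32 with phenolphthalein. Its corn oil arrays enclosed all phenolphthalein arrays, and the difference was 0.03 ± 0.30 (SE). Ccna2, cyclin A2, which acts in S phase and G2, had a difference of -0.28 ± 0.29 (SE) and lower means in its other probes too, at -0.06 and -0.11. Cdkn3, a phosphatase that acts on cyclin-dependent kinases, had a difference of 0.01 ± 0.24 (SE).

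Of the mitotic kinases, Aurka, Aurora A, which matures centrosomes and builds spindle poles, was the 1 mitosis member with all phenolphthalein arrays below all corn oil arrays. It read -0.67, -0.49 and -0.53 with corn oil and -0.71, -0.80 and -0.78 with phenolphthalein, a difference of -0.20 ± 0.08 (SE; limma adjusted p = 0.320). Its second probe read -2.57, -2.69 and -2.65 with corn oil and -3.08, -3.09 and -3.14 with phenolphthalein. The groups did not overlap there either, and with each probe tested by limma on its own the difference was -0.47 ± 0.07 (SE; adjusted p = 0.135). Plk1, Polo-like kinase 1, which acts through mitosis, read -1.91, -1.14 and -1.18 with corn oil and -1.36, -1.37 and -1.70 with phenolphthalein, a difference of -0.06 ± 0.23 (SE). Bub1, a kinase of the spindle checkpoint, read -2.31, -1.93 and -1.64 with corn oil and -2.38, -2.29 and -2.21 with phenolphthalein. Corn oil replicate 1 again lay within the phenolphthalein range, and the difference was -0.33 ± 0.18 (SE). Birc5, survivin, a subunit of the Aurora B complex, had a difference of -0.08 ± 0.17 (SE).

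Cdc20, which activates the anaphase-promoting complex, had a difference of -0.04 ± 0.12 (SE), with levels from -0.85 to -0.54 over the 6 arrays. Ube2c, the ubiquitin-conjugating enzyme of that complex, read -3.11, -2.63 and -2.50 with corn oil and -2.77, -2.88 and -3.33 with phenolphthalein, a difference of -0.25 ± 0.22 (SE).

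The proteins of the spindle and of cytokinesis held the lowest and the highest difference of the mitosis members. Nusap1, a microtubule-binding protein of the spindle, read -2.37, -1.88 and -1.83 with corn oil and -2.35, -2.52 and -2.69 with phenolphthalein. Corn oil replicate 1 lay just below phenolphthalein replicate 1, and the difference was -0.49 ± 0.17 (SE; limma adjusted p = 0.286). Kif11, the kinesin that pushes spindle poles apart, read -3.67, -3.65 and -3.78 with corn oil and -3.22, -3.33 and -3.47 with phenolphthalein. All phenolphthalein arrays lay above all corn oil arrays, against the direction of most mitosis genes, and the difference was 0.36 ± 0.09 (SE; limma adjusted p = 0.214). Its second probe was dim and stood well above background on 3 of 3 phenolphthalein but 1 of 3 corn oil arrays, with a difference of 0.57 ± 0.33 (SE). That probe passed the filter mainly through the phenolphthalein arrays, and the third was well above background on none of the 6 arrays. Prc1, which bundles the microtubules of the central spindle, read -3.27, -2.66 and -2.60 with corn oil and -3.00, -3.32 and -3.38 with phenolphthalein, a difference of -0.39 ± 0.21 (SE). Kif20a, a kinesin of cytokinesis, had a difference of -0.33 ± 0.23 (SE), and Tpx2, the activator of Aurora A on the spindle, one of -0.38 ± 0.23.

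The mitosis members that did not pass the filter were near background. Aurkb, Aurora B, read -7.08, -6.13 and -5.53 with corn oil and -6.09, -7.00 and -7.60 with phenolphthalein and was not well above background on any array. Pbk, a mitotic kinase, was not well above background on any array either. Cenpf, a kinetochore protein, had 4 probes, of which 1 was well above background on 1 corn oil array. No fold is given for these 3 genes.

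**Figure D3:**
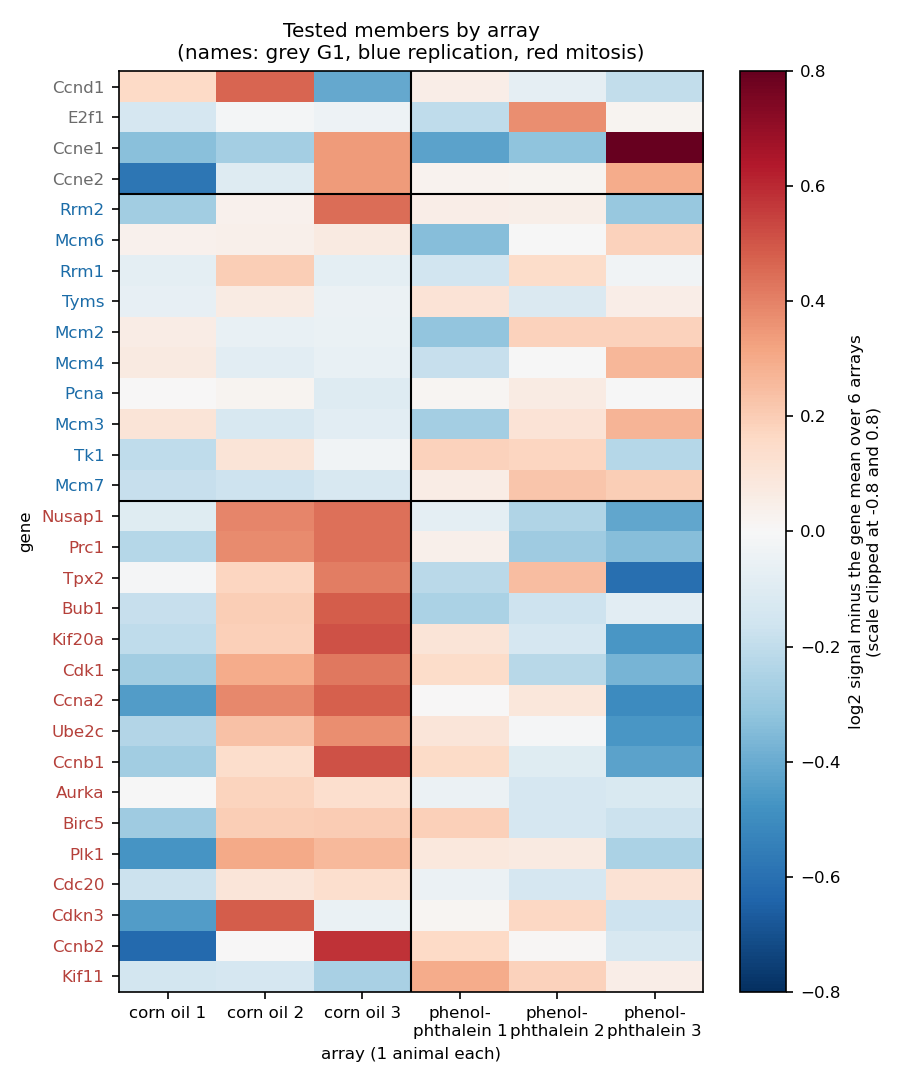
Signal of the 30 tested members on each array as the deviation from the gene's mean over the 6 arrays, in log2 units (colour). Genes are in rows grouped by role and arrays in columns, and each gene is shown by its brightest probe only. In most mitosis rows corn oil replicates 2 and 3 are red and corn oil replicate 1 and phenolphthalein replicate 3 are blue, while most replication rows are paler, with phenolphthalein replicate 1 blue for Mcm2, Mcm3, Mcm4 and Mcm6.

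The mitosis members varied together from animal to animal, inside each group. Corn oil replicate 1 was the lowest corn oil array for 15 of 16 mitosis members (Kif11 was the exception), against 5 of 10 replication members and 32.3% of all genes. Corn oil replicate 3 was the highest of all 6 arrays for 12 of 16 mitosis members, against 1 of 10 replication members and 14.3% of all genes. Phenolphthalein replicate 3 was the lowest phenolphthalein array for 13 of 16, against 3 of 10 and 29.8%. Among 27 other genes of the mitotic spindle, kinetochore and cytokinesis, described below, the same counts were 17, 11 and 14, in this order. Those shares, 63.0%, 40.7% and 51.9%, also lay above those of all genes. The median SD between animals was 0.35 among mitosis members with corn oil and 0.20 with phenolphthalein, and 0.08 and 0.21 among replication members. With each group's mean taken out, the mean pairwise Pearson r over the 6 arrays was 0.65 among the 16 mitosis members, 0.08 among the 10 replication members, -0.05 between the 2 lists and 0.007 among all genes. These genes share the same 6 animals and arrays, so the values are descriptions, and the measure was chosen after the data were seen.

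Each mitosis member was also set against the median of the other mitosis members over the 6 arrays, with group means left in. By this measure, which a shared difference between groups also enters, 9 of 16 mitosis members had an r above 0.8. They were Cdk1 (r = 0.97), Kif20a (0.97), Ccnb1 (0.96), Prc1 (0.95), Ube2c (0.93), Ccna2 (0.91), Nusap1 (0.89), Birc5 (0.86) and Plk1 (0.83). Kif11 ran the other way, with r = -0.43, and of the replication members Rrm2 alone passed 0.8, with 0.93 for its brightest probe. Among all genes, set against the median of all 16 mitosis members, 2.00% passed 0.8. Of the 9 genes, 7 had a promoter entry, and all 7 held CCAAT and 5 held CHR letters. Of the other 7 mitosis members, 6 had an entry and 3 held CHR letters, and Ccnb2, Cdkn3, Cdc20 and Kif11 held CCAAT. Among all promoters 18.3% held CHR letters and 37.5% CCAAT. The table's start lay over 1000 bases inside the gene for Birc5, which held CHR letters, and for Aurka and Kif11, which did not. These counts therefore do not show that motifs differ between the 2 sets.

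The replication and mitosis lists were compared array by array through the median deviation of their members from each gene's mean over the 6 arrays. For replication this was -0.03, 0.03 and -0.06 with corn oil and -0.07, 0.09 and 0.12 with phenolphthalein, in the order of replicate number. For mitosis it was -0.23, 0.20 and 0.42 with corn oil and 0.06, -0.11 and -0.30 with phenolphthalein. The mitosis values of the groups overlapped, since corn oil replicate 1 lay below phenolphthalein replicates 1 and 2. Replication minus mitosis was 0.20, -0.17 and -0.47 with corn oil and -0.13, 0.20 and 0.42 with phenolphthalein, and these groups overlapped too. The difference between the lists' medians over genes was 0.29. The members were chosen with earlier results known, so none of these values has a test.

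The size of the mitosis median changed with single animals and with the background correction. It was -0.44 without corn oil replicate 1, -0.11 when corn oil replicate 3 was left out and -0.10 when phenolphthalein replicate 3 was, and it was -0.18 with corn oil replicate 2 removed and -0.32 and -0.26 with phenolphthalein replicate 1 or 2 removed. The replication median lay between -0.02 and 0.05 in these fits, at -0.02 without phenolphthalein replicate 3. The difference between the medians was 0.47 without corn oil replicate 1, 0.14 when corn oil replicate 3 was left out and 0.09 when phenolphthalein replicate 3 was. With each array scaled to its median, the mitosis median was -0.17 and the replication median 0.12, where that of all genes was 0.09. With normexp background correction in place of the scanner's, the mitosis median was -0.12, 14 of 16 members had a lower mean, and the difference between the lists was 0.17. Under that correction Prc1 had a difference of -0.03, Tpx2 one of -0.04, Ube2c one of -0.06 and Ccna2 one of -0.12. Bub1 had one of -0.18, Nusap1 -0.18, Kif20a -0.20, Ccnb1 -0.16 and Kif11 0.23.

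**Figure D4:**
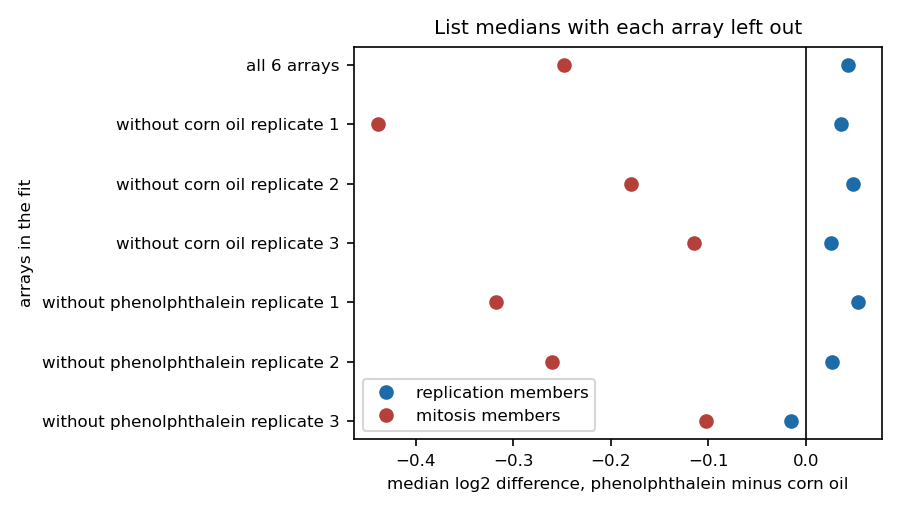
Median difference of the 10 replication (blue) and 16 mitosis (red) members on the x axis, in log2 units of phenolphthalein minus corn oil, with all 6 arrays and with each array left out in turn (rows). The red points run from -0.44 to -0.10 and lie left of the blue points in every row.

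Markers of other liver cells also had lower means with phenolphthalein. Of 12 Kupffer cell and macrophage markers 11 were tested, and all 11 had a lower mean with phenolphthalein, with a median difference of -0.63. By limma 0 passed after adjustment and 10 had an unadjusted p under 0.05. Among all genes tested 8.11% were lower at that p and 48.2% had a lower mean. Their summed signal was 191 to 273 with corn oil and 141 to 186 with phenolphthalein, in multiples of the array's 75th percentile. Marco, a scavenger receptor, had a difference of -1.45 ± 0.28 (SE), Cd163, which takes up haemoglobin, one of -0.63 ± 0.15 and Clec4f, which marks Kupffer cells, one of -0.56 ± 0.16. Of 14 lymphocyte and leukocyte markers 10 were tested, 9 had a lower mean, and the median was -0.43. Here 0 passed limma's adjusted threshold and 5 were lower at an unadjusted p under 0.05. The summed signal was 4.27 to 4.89 with corn oil and 2.93 to 3.53 with phenolphthalein. Ptprc, CD45 of all leukocytes, had a difference of -0.59 ± 0.11 (SE), Lck, a T cell kinase, one of -0.50 ± 0.13 and Cd3d, a chain of the T cell receptor complex, one of -0.30 ± 0.10. Clec4f, Ptprc and Cd3d were well above background on all 6 arrays, and of the lists' markers with a probe each was well above background on at least 1 array.

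Within the corn oil group these markers had another order than the mitosis genes. The Kupffer list's median deviation was 0.55, 0.37 and 0.06 on corn oil replicates 1 to 3, and the lymphocyte list's 0.37, 0.20 and 0.15, so that replicate 1 was the highest corn oil array where it was the lowest for mitosis. With phenolphthalein the Kupffer list read -0.50, -0.44 and -0.03 and the lymphocyte list -0.18, -0.43 and -0.12. Their part in the mitosis differences was not tested.

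**Figure D5:**
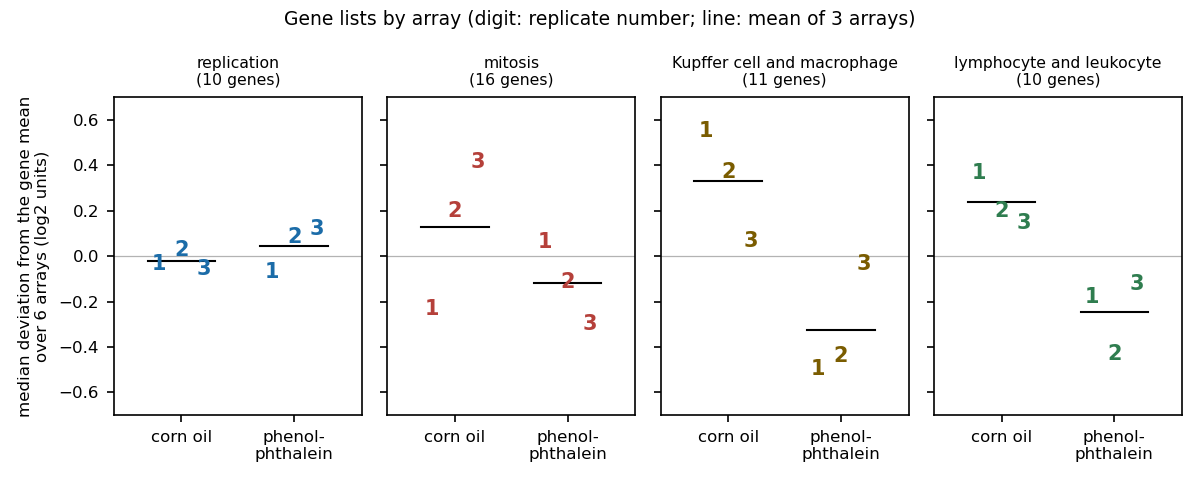
Median deviation of 4 gene lists from each gene's mean over the 6 arrays, in log2 units on the y axis, by group; digits are replicate numbers and lines the mean of 3 arrays. Corn oil replicate 1 is the lowest corn oil array for mitosis, at -0.23, and the highest for Kupffer cell and macrophage markers, at 0.55.

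The other marker lists had smaller shifts or fewer members. Erythroid genes, of which Ahsp steadies alpha globin and Alas2 starts haem synthesis in red cells, had a median of -0.06 over 5 tested genes, with -0.38 for Ahsp and -0.42 for Alas2. These 5 genes went both ways, with 2 higher and 3 lower means and differences up to 0.17. Their median deviation was -0.20, 0.21 and 0.29 with corn oil, the same order of animals as the mitosis list, and -0.19, -0.01 and 0.08 with phenolphthalein, another order. Their summed signal was 206 to 289 with corn oil and 207 to 255 with phenolphthalein. The median difference of these 5 genes was 0.10 without phenolphthalein replicate 1 and -0.26 without phenolphthalein replicate 3, and -0.14, -0.13 and -0.14 on leaving out, in turn, corn oil replicates 1 and 3 and phenolphthalein replicate 2. Bile duct markers had a median of 0.29 over 5, with 0.92 for Spp1, osteopontin, 0.29 for Epcam, an epithelial adhesion protein, and -0.09 for Krt19, the keratin that defines bile duct cells. Leaving out corn oil replicate 2 gave a median of 0.10, and leaving out phenolphthalein replicate 3 gave 0.16. Stellate cell markers had a median of -0.19 over 8, with 0.65 for Rgs5 and -0.48 for Col1a1, a chain of type I collagen, and the removal of corn oil replicate 1 or of phenolphthalein replicate 1 gave medians of -0.09 and -0.32. Sinusoidal endothelial markers had one of -0.08 over 5, with -0.34 for Oit3 and -0.17 for Fcgr2b, and hepatocyte markers one of 0.08 over 9, with 0.10 for Fgb, a fibrinogen chain, 0.33 for Tat, tyrosine aminotransferase, and 0.01 for Alb.

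Beyond the 38 genes, 129 other genes of the cell cycle and of liver growth formed 6 lists, and 97 of them were tested. None passed limma's adjusted threshold, and 8 higher and 9 lower had an unadjusted p under 0.05, against 7.16% and 8.11% of all genes. Of 31 genes of origin firing and the replisome, 4 were higher and 2 lower at that unadjusted p, with a median of 0.03. Mcm8, a helicase of meiotic and double-strand break repair that is not part of MCM2-7, read -4.04, -3.80 and -4.03 with corn oil and -2.99, -3.03 and -2.99 with phenolphthalein. The groups lay apart, and the difference was 0.96 ± 0.09 (SE; limma adjusted p = 0.0627). Cdc45, which joins the MCM ring in the active helicase, had a difference of 0.28 ± 0.07 (SE), and Orc2, of the origin recognition complex, one of 0.36 ± 0.09, each higher on all 3 phenolphthalein arrays.

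Of 27 genes of the mitotic spindle, kinetochore and cytokinesis, 20 had a lower mean, and the median was -0.13. At an unadjusted limma p under 0.05, 2 were higher and 3 lower. Among all genes 48.2% had a lower mean, and 7.16% were higher and 8.11% lower at that p. Cenpa, the histone H3 variant of centromeres, had a difference of -0.67 ± 0.20 (SE), Espl1, separase, which opens cohesin rings at anaphase, one of -0.49 ± 0.15 and Bub3, of the spindle checkpoint, one of 0.27 ± 0.08. Leaving out corn oil replicate 1 gave a median of -0.29, and leaving out phenolphthalein replicate 1 or 3 gave -0.23 and -0.06. The mean pairwise r of the 27 genes with group means taken out was 0.05, against 0.65 for the mitosis members. With group means left in, 8 of these 27 genes had an r above 0.8 with the mitosis members' median. They were named by that measure, after the data were seen, and were Kif22, Cdca3, Kif2c, Racgap1, Ttk, Ckap2, Dlgap5 and Kif23.

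No control of the cycle passed limma's adjusted threshold. Among other cyclins, kinases and phosphatases 0 of 11 had an unadjusted limma p under 0.05 and the median was -0.16, with -0.18 ± 0.08 (SE) for Ccnd3, cyclin D3, -0.16 ± 0.08 for Cdk4, the kinase of D cyclins, and 0.82 ± 0.41 for Cdk6, its relative. Cdk6 read -2.09, -2.34 and -0.83 on the phenolphthalein arrays, so 1 array carried much of that difference. Among 14 inhibitors and genes of rest 1 was higher and 3 lower at that p, with a median of -0.03. Of all genes tested 7.16% were higher and 8.11% lower at that p. Cdkn1c, the inhibitor p57, had a difference of 0.54 ± 0.15 (SE), Cdkn2a, which codes for an inhibitor of the D cyclin kinases, one of -0.24 ± 0.09 and Rb1, the retinoblastoma protein, one of -0.36 ± 0.14.

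Among 6 transcription factors of the cycle 1 was higher at an unadjusted limma p under 0.05, Tfdp1, the dimer partner of E2F, at 0.17 ± 0.07 (SE). Of all genes tested 7.16% were higher and 8.11% lower at that p. E2f7, a repressor of the E2F family, had a difference of 0.21 ± 0.16 (SE) and Foxm1, the activator of G2 and mitosis genes, one of -0.13 ± 0.11. Foxm1 read -1.83, -1.56 and -1.71 with corn oil and -1.68, -1.95 and -1.88 with phenolphthalein, with overlapping groups. Among 8 liver growth signals 1 was lower at that p. It was Tgfb1, which restrains hepatocyte division and is made by several sinusoidal cell types, at -2.16, -2.33 and -2.14 with corn oil and -2.73, -3.39 and -2.91 with phenolphthalein. The phenolphthalein arrays all lay lower, and the difference was -0.80 ± 0.18 (SE; limma adjusted p = 0.178), beside the lower macrophage markers given above. Egfr, the receptor of epidermal growth factor, had a difference of 0.41 ± 0.20 (SE) and Met, the receptor of hepatocyte growth factor, one of 0.17 ± 0.10, and neither had an unadjusted limma p under 0.05.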

How the data were processed

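Cy3-labelled liver RNA of 6 rats went on 1-colour Agilent arrays, as the labels' protocols say. Scans were read with Agilent Feature Extraction (10.7 in the submitters' processing notes, 10.7.1.1 in the headers). The deposited intensity used here had its background subtracted, per the file headers, and carried no scaling between arrays. The authors' deposited value table is this intensity over 1 factor for each array, as a comparison with the scanner values showed, and it was linear and not centred, with column medians of 0.0984, 0.101, 0.102, 0.0954, 0.0941 and 0.0959 (corn oil replicates 1 to 3, then phenolphthalein 1 to 3).

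Each array's 75th percentile was subtracted from its processed signals on the log2 scale. Outlier-marked spots, 4 to 14 per array, were left out, and a probe was kept if 3 or more of 6 arrays had it well above background. Probes were named by unversioned accession through a RefSeq table of assembly GRCr8, used for names only because the array design was annotated on rn4. The brightest probe over all 6 arrays stood for a gene. Genes were tested with limma 3.58.1 (R 4.3.3), lmFit and eBayes, with Benjamini-Hochberg adjustment at 0.05 over 11434 genes. Promoters came from the RefSeq promoter table of GRCr8.

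The members and all lists were chosen with earlier results of these data known. The genes named were every member with a probe, the 3 with the smallest p of each wider list, and of each marker list the 2 with the smallest p and those that define the cell. Genes named by their likeness to the mitosis members were chosen after the data were seen. Alternatives were other background corrections, scalings, filters, probe rules, variance models and values, the removal of each array, and a block for replicate number. No member probe lay in the 2 array columns with a line of dim spots.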

Additional observations from a re-analysis of the deposited data

How the results depend on the processing

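Over 19 alternatives no member passed the adjusted threshold, and the smallest limma adjusted p of a member was 0.147. The count of all genes past that threshold was 7 in the main setting, 12 with each probe tested alone and 14 with unnamed accessions added. It was 0 without corn oil 1, corn oil 3 or phenolphthalein 1. It was 1 without corn oil 2 or phenolphthalein 2 and 6 without phenolphthalein 3. With the replicate number as a block it was 0, and the block changed no call of a member. Deviations of same-numbered arrays from their group means correlated at -0.025, 0.017 and -0.003, and those of other pairs from -0.063 to 0.068. Such values cannot tell whether same-numbered animals shared handling. Quantile normalization gave 7 genes higher and 0 lower and normexp 6 and 0, against 6 and 1 in the main setting. Scaling to each array's median moved the replication median to 0.122 and that of all genes to 0.089. Of 30 members, 13 kept their sign in every setting run and 17 did not. With that median scaling the sign turned for Birc5 (0.0014), Cdc20 (0.038), Plk1 (0.016) and Rrm1 (0.056); with normexp for Cdkn3 (-0.042), Mcm3 (-0.0047) and Rrm1 (0.014); with quantile normalization for Rrm1 (0.016); and on averaging a gene's probes, for Pcna (-0.045). With each array left out in turn, differences that crossed 0 ran from -0.24 to 0.0049 for Birc5, -0.28 to 0.32 for Ccnb2, -0.38 to 0.053 for Ccnd1, -0.29 to 0.44 for Ccne1, -0.0040 to 0.46 for Ccne2, -0.14 to 0.017 for Cdc20, -0.21 to 0.25 for Cdkn3, -0.028 to 0.26 for E2f1, -0.048 to 0.20 for Mcm2, -0.044 to 0.23 for Mcm3, -0.069 to 0.16 for Mcm4, -0.22 to 0.042 for Mcm6, -0.31 to 0.073 for Plk1, -0.10 to 0.069 for Rrm1, -0.31 to 0.055 for Rrm2 and -0.016 to 0.095 for Tyms. The cause of these turns was not tested. Signal near background limits Ccne2, the second probe of Kif11 and the probes of Aurkb, Pbk and Cenpf.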
